A study of Mus musculus with 6 samples.

Results

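Chromatin accessibility was examined at the genes of the RhoA, ROCK and cofilin axis: the small GTPase genes Rhoa, Rhob, Rhoc and Rhoh, the kinase genes Rock1 and Rock2, the formin gene Diaph1, the LIM kinase genes Limk1 and Limk2, and the cofilin gene Cfl1. A peak was counted to one of these 10 genes when the gene end nearest its midpoint, among all protein-coding genes of the mm10 RefSeq annotation, belonged to the gene and lay within 50 kb. This gave 41 of the 42632 deposited peaks: 1 at Rhoa, 3 each at Rhob, Rhoc and Limk1, 7 at Rhoh, 2 each at Rock1 and Cfl1, 6 at Rock2, 9 at Diaph1 and 5 at Limk2. Of the 41 peaks, 11 were centred within 1 kb of a gene end and are called gene-end peaks. RefSeq transcript starts and strand were at hand for 8 of the 10 genes, all but Rock1 and Diaph1, and 10 peaks were centred within 1 kb of such a start.

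The cells were long-term haematopoietic stem cells (LT-HSCs) of young C57BL/6 mice, 10 to 16 weeks old, sorted from bone marrow by surface phenotype (Lin- Sca1+ cKit+ CD34- Flt3-) and profiled in bulk by ATAC-seq, in which a transposase cuts and tags open DNA. Confined LT-HSCs (3 libraries) were kept for 13 h in medium, attached for 0.5 h to glass coated with fibronectin, held for 2 h beneath a ceiling 5 µm high, and then released from the glass with a dissociation reagent. Unconfined control LT-HSCs (3 libraries) were kept in the same medium for 16 h and went straight to transposition, so attachment, release and confinement cannot be told apart. The comparison asks what squeezing does to the accessible genome of a stem cell, and the title of the series places nuclear RhoA activity at the centre of the study. The labels call the samples biological replicates and give same-numbered libraries of both groups the same experimental batch. They do not state separate animals, so p-values measure the spread between these samples.

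RhoA and its relatives are small GTPases that signal while bound to GTP. Active RhoA binds the ROCK kinases, which raise myosin light chain phosphorylation and activate the LIM kinases, and it opens the formin mDia1, which elongates straight actin filaments. LIM kinases phosphorylate cofilin and so stop it from severing actin, which links RhoA activity to both contraction and filament turnover. In blood stem cells the pathway is known for its part in adhesion, migration and cell division.

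The 250 bases before the RefSeq transcript start (GRCm38.p6, the mm10 assembly) are printed for the 6 genes with the start peaks the results turn on, since each window overlaps the peak whose counts follow. The windows are chr9:108305910-108306159 (+ strand) for Rhoa, chr12:8500010-8500259 (- strand) for Rhob, chr3:104788784-104789033 (+) for Rhoc, chr12:16894728-16894977 (+) for Rock2, chr5:134688591-134688840 (-) for Limk1 and chr19:5490205-5490454 (+) for Cfl1, each written 5′ to 3′ on the strand of the gene. Capitals mark matches, on either strand, to GGGCGG (the GC box), CCAAT (the CCAAT box), TGACGT (a CRE core), CACGTG (an E-box), GGAATG (a TEAD site), CCGGAAG (an ETS site) and the CArG box of SRF.
Rhoa: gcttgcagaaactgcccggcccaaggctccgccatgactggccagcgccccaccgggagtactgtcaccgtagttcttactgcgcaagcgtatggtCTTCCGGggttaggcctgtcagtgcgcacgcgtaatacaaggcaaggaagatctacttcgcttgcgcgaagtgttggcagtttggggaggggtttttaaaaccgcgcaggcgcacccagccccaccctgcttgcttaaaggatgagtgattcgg
Rhob: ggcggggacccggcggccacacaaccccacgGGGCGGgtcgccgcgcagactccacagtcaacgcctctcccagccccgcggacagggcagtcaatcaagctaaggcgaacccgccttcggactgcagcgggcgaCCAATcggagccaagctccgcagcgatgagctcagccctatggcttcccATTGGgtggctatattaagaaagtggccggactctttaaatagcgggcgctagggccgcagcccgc
Rhoc: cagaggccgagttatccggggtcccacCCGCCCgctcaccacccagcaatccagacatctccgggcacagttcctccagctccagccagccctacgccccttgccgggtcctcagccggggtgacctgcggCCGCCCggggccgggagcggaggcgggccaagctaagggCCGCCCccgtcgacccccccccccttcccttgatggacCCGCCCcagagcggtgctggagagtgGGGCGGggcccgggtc
Rock2: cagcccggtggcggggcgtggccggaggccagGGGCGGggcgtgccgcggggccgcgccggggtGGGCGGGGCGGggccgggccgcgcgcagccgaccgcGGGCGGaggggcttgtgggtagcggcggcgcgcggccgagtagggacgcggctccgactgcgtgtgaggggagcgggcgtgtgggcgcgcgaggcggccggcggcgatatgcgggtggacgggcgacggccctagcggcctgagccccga
Limk1: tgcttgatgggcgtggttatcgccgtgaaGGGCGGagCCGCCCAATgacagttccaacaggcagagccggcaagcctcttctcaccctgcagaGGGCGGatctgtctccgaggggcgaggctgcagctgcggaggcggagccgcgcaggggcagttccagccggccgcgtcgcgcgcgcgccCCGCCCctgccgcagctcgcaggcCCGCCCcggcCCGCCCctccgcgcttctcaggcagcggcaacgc
Cfl1: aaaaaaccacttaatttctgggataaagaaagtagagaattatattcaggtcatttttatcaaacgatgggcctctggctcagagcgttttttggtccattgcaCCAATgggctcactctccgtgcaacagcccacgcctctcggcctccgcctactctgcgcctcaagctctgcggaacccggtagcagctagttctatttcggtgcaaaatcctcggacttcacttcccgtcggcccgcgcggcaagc

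The windows differed in base composition and in the motifs found. Limk1 had 6 GC boxes and 1 CCAAT match in a window of 73.6% G and C, Rhoc had 5 GC boxes, and Rock2 had 4 in a window of 83.6% G and C. The Rhob window held 1 GC box and 2 CCAAT matches, the Cfl1 window 1 CCAAT match, and the printed Rhoa window 1 CCGGAAG match with no GC box. A second Rhoa start window, chr9:108306547-108306796, also overlaps the Rhoa peak, by 141 bases, and held 2 GC boxes and 79.6% G and C. Among 32841 RefSeq promoter windows of the same length, 32.7% held GGGCGG, 33.9% CCAAT and 6.91% CCGGAAG, and the median share of G and C was 52.4%. The CRE core, the E-box and the CArG box, which had at least 1 match in 6.47%, 6.02% and 1.47% of all windows, did not occur in any of the 12 windows of the 8 matched genes. The TEAD site letters, present in 12.6% of all windows, had 1 match in these 12, at Rhoh. In the Limk1 window a GC box overlaps the CCAAT match, and in the Rock2 window neighbouring GC boxes overlap, so they run together in capitals. These matches describe the letters only. At Rhoa the window ends against the next gene: Tcta, on the other strand, starts at 108306159 and Rhoa at 108306160, so their shared peak was assigned to Rhoa by a difference of 1 bp, at 177 bp against 178 bp.

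The libraries were unequal, and this touches every value that follows. Counts in peaks totalled 128257 to 340922 in confined libraries and 304898 to 1229478 in unconfined ones, and single peaks of the axis held 0 to 26 counts (median 5) in confined libraries and 0 to 139 (median 17) in unconfined ones. Over all peaks, log2(CPM + 1) correlated across peaks with the unconfined libraries at r = 0.418 to 0.524 for confined library 1, 0.0243 to 0.05 for library 2 and -0.0270 to -0.00727 for library 3, so confined libraries 2 and 3 stand apart. These correlations used CPM over the totals of all peaks. Elsewhere, unless stated, CPM means counts scaled by each library's counts in the 9084 peaks that passed the filter on low counts, not by its total. TMM factors were taken over the same peaks. These peaks held 34.8%, 24.2% and 23.6% of all counts in confined libraries 1, 2 and 3. They held 50.2%, 43.2% and 51.2% in unconfined libraries 1, 2 and 3. Confined values are therefore higher relative to unconfined ones than with scaling by the totals of all peaks. On this scale 3 counts, the limit below which a 0 cannot be told from a low value, come to 25.0, 55.7 and 94.3 CPM in confined libraries 1, 2 and 3 and to 20.2, 5.70 and 6.13 CPM in unconfined libraries 1, 2 and 3. Gene-end peaks of the stem cell marker list summed to 187 to 230.4 CPM over all peaks in confined libraries and 190.2 to 237 in unconfined ones (6 of 9 genes with such a peak; Mecom, Tek and Gata2 had none). The B cell list summed to 101 to 114 against 55.8 to 74.8 (3 of 6 genes, none at Ms4a1 or Pax5), and its part in the results was not tested. In bulk libraries, fewer cells with an open site and less opening per cell cannot be told apart.

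No peak of the axis passed the test between confined and unconfined cells. Of the 41 peaks, 12 had enough counts to be tested, and 0 passed as higher and 0 as lower after confinement (two-sided quasi-likelihood test of edgeR, p adjusted by Benjamini-Hochberg over all tested peaks, threshold 0.05), while 5.79% of all 9084 tested peaks were higher and 2.42% lower. At an unadjusted p under 0.05 there were 4, all with lower values in confined cells and all gene-end peaks, at Rhob, Rock1, Diaph1 and Limk1. At that level 1073 of all 9084 tested peaks were lower and 1205 higher. Of the 4636 tested gene-end peaks 813 were lower and 197 higher. DESeq2 and limma-voom also called 0 of the 12. Over all tested peaks DESeq2 called 448 higher and 75 lower, and limma-voom 783 higher and 221 lower. The median log2 fold change of the 12 was -0.39, against -0.02 for all tested peaks. Of the 12, 11 reached the filter in all 3 unconfined libraries, and 1 of these, at Limk2, in all 3 confined ones as well. At 2, the Rock1 end and the distal Rock2 site, the filter was reached in 0 confined libraries. The 5 gene-end peaks among the 12 had a median of -0.90, all below 0, against -0.26 for all tested gene-end peaks, of which 1.08% were called higher and 3.77% lower. The 7 others had 0.09, against 0.27 for all other tested peaks, and include the inner starts of Limk1 and Limk2. Grouped instead by distance to a RefSeq transcript start, 5 of the 10 start peaks were tested. Of these 3 were below 0 and 2, the inner Limk1 and Limk2 starts, above, with a median of -0.54. In counts simulated from a common mean profile at the depths of these libraries, the test called 30 of 100 peaks changed 2-fold and 79 of 100 changed 4-fold. Even there, a 2-fold difference was mostly not detectable at this depth.

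**Figure D1:**
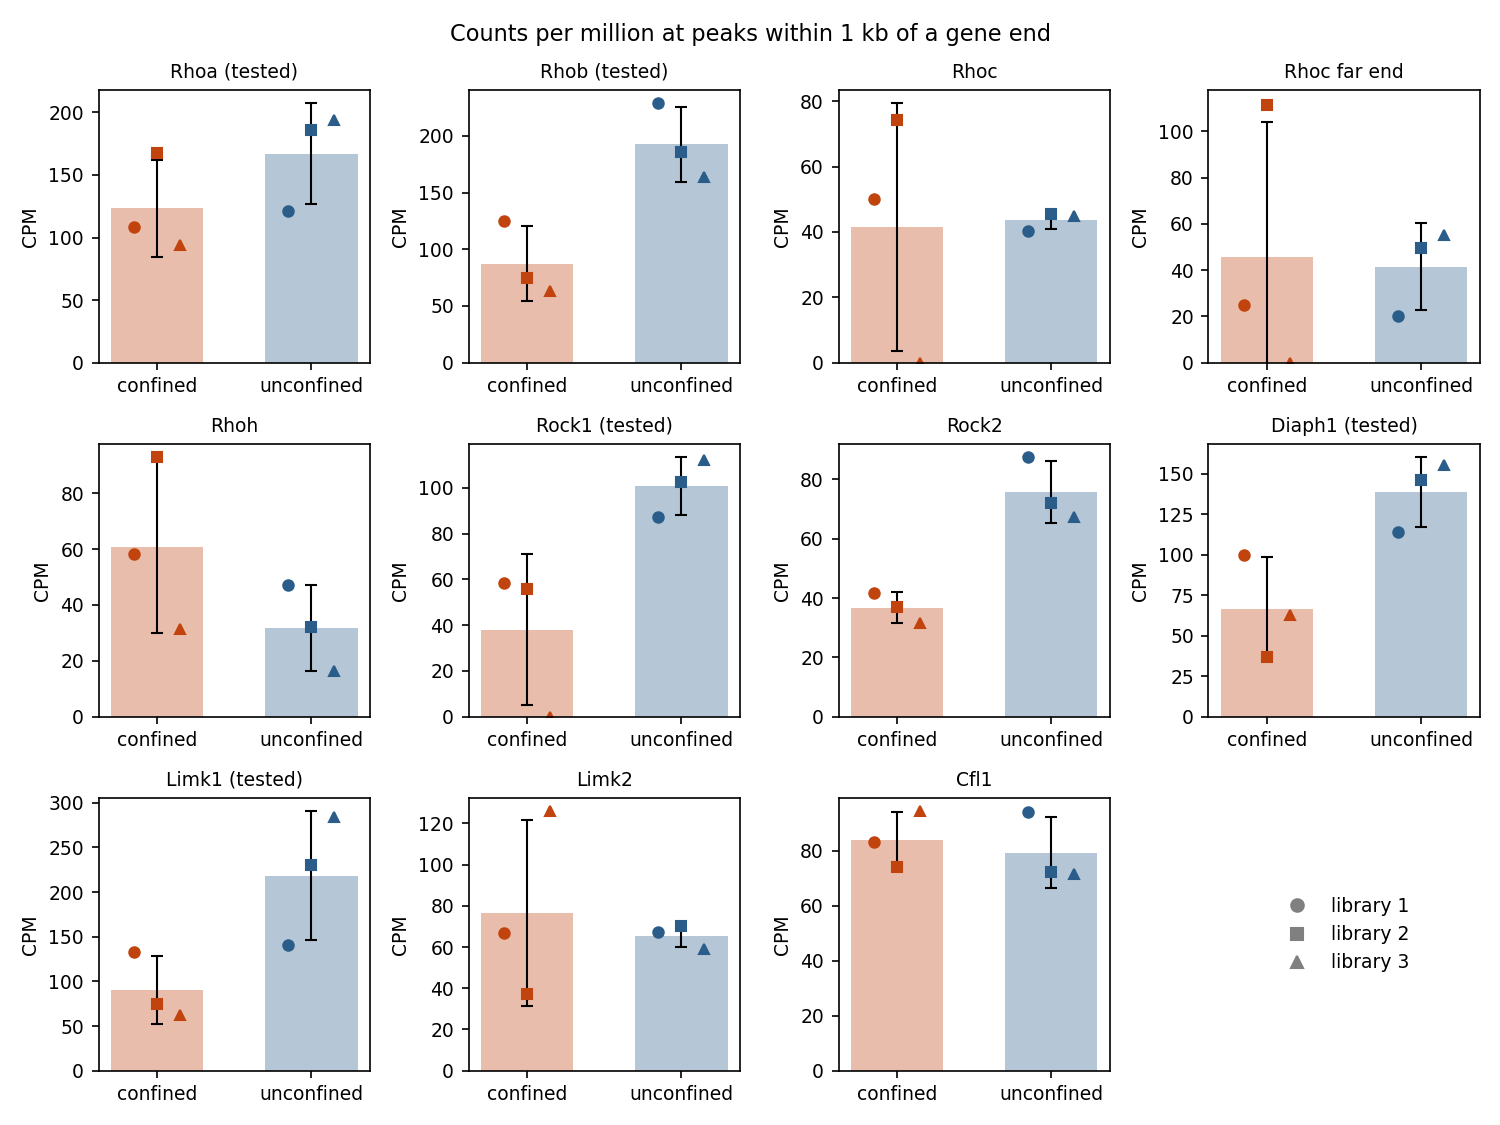
CPM (TMM-scaled, linear axis from 0) at the 11 gene-end peaks of the axis, 1 panel per peak, with confined libraries left and unconfined libraries right; points are libraries, marked by library number, and bars are means with SD (n = 3). On this scale each confined library lies below each unconfined library at Rhob, Rock1, Rock2, Diaph1 and Limk1, while at Rhoa and Cfl1 the groups overlap. Confined library 3 held fewer than 3 counts at each peak where its group lies wholly below.

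Rhoa, the GTPase that gives the axis its name, had a single peak, at its transcript start on chr9:108305988-108306687. It held 13, 9 and 3 counts in confined libraries 1, 2 and 3, against 18, 98 and 95 in unconfined libraries 1, 2 and 3, which is 108, 167 and 94.3 CPM against 121, 186 and 194 CPM. Confined values lay below the unconfined value of the same batch in 3 of 3 pairs. On this CPM scale the groups still overlapped, since confined library 2 was above unconfined library 1. The means were 123 ± 38.6 CPM in confined cells and 167 ± 40.1 CPM in unconfined cells (SD, n = 3 each), and the difference did not pass (log2 fold change -0.54 with SE 0.35, edgeR adjusted p = 0.341). As Rhoa has no second peak, no shift between its own sites could be measured, and the peak cannot be told apart from that of Tcta.

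Rhob encodes a GTPase close to RhoA that also sits on endosomes and is known as an early-response gene. Its start peak, chr12:8499581-8500280, held 125, 74.3 and 62.9 CPM in confined libraries against 229, 186 and 163 CPM in unconfined ones. All 3 confined values were below all 3 unconfined values, with means of 87.4 ± 33.1 and 193 ± 33.1 CPM (SD, n = 3 each), yet the test did not pass (log2 fold change -0.87 with SE 0.36, edgeR adjusted p = 0.122). The Rhob peak 24786 bp away had the opposite order on this CPM scale, with 117, 92.8 and 126 CPM in confined libraries and 67.2, 87.4 and 63.3 CPM in unconfined ones. It did not pass either (log2 fold change 0.58 with SE 0.39, edgeR adjusted p = 0.355). The peak 46824 bp away, the farthest one counted to Rhob, held 100.0, 55.7 and 157 CPM in confined libraries against 60.5, 51.3 and 55.1 CPM in unconfined ones and had too few counts to be tested. Just outside the 50 kb limit, 57147 bp from Rhob, a peak held 75.0, 167 and 62.9 CPM in confined libraries and 26.9, 36.1 and 30.6 CPM in unconfined ones.

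Rhoc, a GTPase of the same subfamily known from cell migration, had 3 weak peaks, of which none was tested. Its start peak, chr3:104788556-104789255, held 50.02, 74.3 and 0 CPM in confined libraries and 40.3, 45.6 and 44.9 CPM in unconfined ones, and the 0 lies in the library where 3 counts equal 94.3 CPM. The peak at the far end of the gene, 93 bp away, held 25.0, 111 and 0 CPM in confined libraries against 20.2, 49.4 and 55.1 CPM in unconfined ones. It lies 276 bp from an end of Mov10. At both peaks the groups overlapped on this CPM scale, with at most 6 counts in each confined library. The peak inside Rhoc, 1762 bp from its start, was higher in each confined library, with 83.4, 111 and 189 CPM against 13.4, 57.0 and 14.3 CPM in unconfined libraries.

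Rhoh encodes a haematopoietic member of the family that does not hydrolyse GTP. Its 7 peaks included 1 at the outer gene end, with 58.4, 92.8 and 31.4 CPM in confined libraries and 47.1, 32.3 and 16.3 CPM in unconfined ones, the lowest mean among the gene-end peaks in unconfined cells. A peak 44 bp from an inner Rhoh transcript start held 75.0, 149 and 157 CPM in confined libraries and 40.3, 64.6 and 26.5 CPM in unconfined ones, with all confined values above on this CPM scale. Neither had enough counts to be tested. The one Rhoh peak that was tested, 4355 bp past the far end on chr5:65900706-65901405, held 125, 167 and 31.4 CPM in confined libraries against 182, 116 and 145 CPM in unconfined ones, and the groups overlapped (log2 fold change -0.20 with SE 0.36, edgeR adjusted p = 0.778).

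The kinases and the formin act directly under RhoA. Rock1 encodes a ROCK kinase, and these kinases phosphorylate the myosin phosphatase and the LIM kinases. Its gene-end peak, chr18:10181567-10182266, held 58.4, 55.7 and 0 CPM in confined libraries (7, 3 and 0 counts) and 87.4, 103 and 112 CPM in unconfined ones (13, 54 and 55 counts). All confined values were lower, with means of 38.0 ± 33.0 and 101 ± 12.6 CPM (SD, n = 3 each), and the test did not pass (log2 fold change -1.10 with SE 0.46, edgeR adjusted p = 0.128). The other Rock1 peak, 12022 bp from the gene end, held 6, 1 and 4 counts in confined libraries and 2, 14 and 8 in unconfined ones and was not tested.

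Rock2, the gene of the second ROCK kinase, had its start peak on chr12:16894546-16895245. It held 41.7, 37.1 and 31.4 CPM in confined libraries and 87.4, 72.2 and 67.4 CPM in unconfined ones, which is 5, 2 and 1 counts against 13, 38 and 33. The groups did not overlap (36.8 ± 5.13 CPM in confined cells and 75.7 ± 10.5 CPM in unconfined cells, SD, n = 3 each), but the peak fell short of the filter on low counts and was not tested. Confined libraries 2 and 3 lay under the 3-count limit, which in library 3 is 94.3 CPM, above every unconfined value here. Their separation from the unconfined libraries therefore rests on counts too low to read. The Rock2 peak 28509 bp away was tested and did not pass, with 50.02, 37.1 and 94.3 CPM in confined libraries and 94.1, 89.3 and 83.7 CPM in unconfined ones (log2 fold change -0.70 with SE 0.47, edgeR adjusted p = 0.351). A nearby peak, 24284 bp away, lay the other way, at 66.7, 149 and 157 CPM in confined libraries against 47.1, 70.3 and 44.9 CPM in unconfined ones, with overlap between the groups and no test.

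Diaph1 encodes the formin mDia1 and had the most peaks, 9. The peak at its gene end, chr18:37934984-37935683, held 100.0, 37.1 and 62.9 CPM in confined libraries and 114, 146 and 155 CPM in unconfined ones. Confined values were all lower (66.7 ± 31.6 CPM, against 139 ± 21.5 CPM in unconfined cells, SD, n = 3 each), and the difference did not pass (log2 fold change -0.90 with SE 0.39, edgeR adjusted p = 0.132). A Diaph1 peak 9528 bp inside the gene held 217, 92.8 and 94.3 CPM in confined libraries and 128, 152 and 116 CPM in unconfined ones, so its group means of 135 ± 71.1 and 132 ± 18.2 CPM were close while the confined libraries spread widely (log2 fold change 0.28 with SE 0.33, edgeR adjusted p = 0.641). The peak 7660 bp inside, too weak to be tested, held 83.4, 111 and 220.1 CPM in confined libraries against 20.2, 36.1 and 28.6 CPM in unconfined ones, and all confined values were higher.

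Limk1, which encodes the LIM kinase that phosphorylates cofilin, came nearest to the threshold. Its start peak, chr5:134688516-134689215, is centred 275 bp from the transcript start and held 16, 4 and 2 counts in confined libraries against 21, 121 and 139 in unconfined ones. This is 133, 74.3 and 62.9 CPM in confined libraries and 141, 229.8 and 284 CPM in unconfined ones. All confined values were lower, confined library 1 by little, and the means were 90.2 ± 37.8 and 218 ± 72.0 CPM (SD, n = 3 each; log2 fold change -1.14 with SE 0.38, edgeR adjusted p = 0.0532). The peak at the inner Limk1 start, 19 bp from it, overlapped between groups, with 108, 74.3 and 0 CPM in confined libraries and 94.1, 85.5 and 59.2 CPM in unconfined ones (log2 fold change 0.09 with SE 0.46, edgeR adjusted p = 0.931). The difference between the Limk1 starts was not tested directly.

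Limk2, the gene of the second LIM kinase, had 5 peaks. Its outer start peak, chr11:3408867-3409566, held 66.7, 37.1 and 126 CPM in confined libraries and 67.2, 70.3 and 59.2 CPM in unconfined ones, with overlap. The peak at an inner Limk2 start, chr11:3371173-3371872, was the only tested one of the axis to reach the filter in each confined library, at 108, 130.0 and 157 CPM, against 67.2, 76.0 and 71.5 CPM in unconfined libraries. All confined values were higher on this CPM scale, and the test did not pass (log2 fold change 0.75 with SE 0.38, edgeR adjusted p = 0.207).

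Cfl1 encodes cofilin 1, the actin-severing protein at the end of the axis, and its start peak had close group means on this CPM scale. On chr19:5490065-5490764 it held 83.4, 74.3 and 94.3 CPM in confined libraries and 94.1, 72.2 and 71.5 CPM in unconfined ones. The means of 84.0 ± 10.0 and 79.3 ± 12.9 CPM (SD, n = 3 each) differed by less than the spread between libraries. The peak rested on 10, 4 and 3 counts in the confined libraries and was not tested. With no filter on low counts its log2 fold change was -0.75 with SE 0.46 (edgeR adjusted p = 0.328). Neither a difference nor an equal level was established. The second Cfl1 peak, 1026 bp inside the gene, held 91.7, 130.0 and 0 CPM in confined libraries and 94.1, 123 and 85.8 CPM in unconfined ones and did not pass (log2 fold change -0.24 with SE 0.41, edgeR adjusted p = 0.76).

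In level, the gene-end peaks can be set side by side, because all peaks are 700 bp wide. In unconfined cells the order of mean CPM ran from Limk1 (218 ± 72.0) through Rhob, Rhoa (167 ± 40.1), Diaph1, Rock1, Cfl1, Rock2 and Limk2 (65.6 ± 5.71) to the 2 Rhoc peaks and Rhoh (31.9 ± 15.4; SD, n = 3). Only 2 steps of this order separated neighbours by more than their SDs, Diaph1 over Rock1 and Limk2 over the Rhoc start. In confined cells the order began with Rhoa (123 ± 38.6), then Limk1, Rhob, Cfl1 and Limk2, and ended with Rock1 (38.0 ± 33.0) and Rock2 (36.8 ± 5.13), and 0 steps separated neighbours beyond their SDs.

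Of the 11 gene-end peaks, 5 (Rhob, Rock1, Rock2, Diaph1 and Limk1) had all confined values below all unconfined ones, as did 11.8% of all gene-end peaks in the table, and 0 had all confined values above, as did 19.7%. In confined library 3 these 5 held 2, 0, 1, 2 and 2 counts, in that order, all under the 3-count limit. Over peaks of every kind, 4.33% lay wholly lower and 37.2% wholly higher. Among the 30 other peaks of the axis, 11 had all confined values above, as did 43.5% of all such peaks, and 0 had all below, as did 1.65%. These counts move with the scaling. With CPM taken over the totals of all peaks, 8 of the 11 gene-end peaks lay wholly lower (31.4% of all gene-end peaks did, and 6.33% lay wholly higher), and of the 30 others 5 lay wholly higher and 4 wholly lower (20.6% and 6.61% of all such peaks). On that scale the starts of Rhoa, Rhoc and Cfl1 were wholly lower as well. The Rhob peak 24786 bp away and the inner Rhoh and Limk2 starts, wholly higher before, overlapped between groups there.

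A share of counts does not depend on that scaling. Gene-end peaks held 30.0%, 22.7% and 16.7% of the counts at the axis in confined libraries 1, 2 and 3, with 95% Clopper-Pearson intervals of 25.2 to 35.2, 17.1 to 29.2 and 10.2 to 25.1. They held 42.5%, 41.0% and 48.4% in unconfined libraries 1, 2 and 3, with intervals of 37.4 to 47.7, 38.6 to 43.6 and 45.6 to 51.2. Intervals and the 3-count limit cover counting error only. The groups did not overlap (23.1% ± 6.68 in confined cells and 44.0% ± 3.88 in unconfined cells, SD, n = 3 each). Over all peaks linked to any gene the share was 32.1% ± 4.38 in confined cells and 47.4% ± 2.28 in unconfined cells, so the axis differed in the same direction as linked peaks in general. By gene, the share was taken as the mean of the library shares, with no test. At Rhob it was 29.4% ± 9.82 in confined and 59.8% ± 3.77 in unconfined cells. At Rock2 it was 9.30% ± 3.31 and 27.8% ± 4.42, and at Diaph1 9.57% ± 6.12 and 25.2% ± 2.29 (SD, n = 3 each). Rhoh had 10.5% ± 4.61 in confined and 10.7% ± 3.90 in unconfined cells. Library values overlapped there, at Limk1 (46.6% ± 19.1 and 60.6% ± 14.9) and at Limk2 (means of 18.5% and 24.9%). At Rhoc (36.6% ± 32.6 and 77.3% ± 13.1) confined library 2 equalled unconfined library 2, at 62.5%. Rock1 rested on few counts in confined cells, with 7 of 13, 3 of 4 and 0 of 4 in its gene-end peak, against 13 of 15, 54 of 68 and 55 of 63 in unconfined libraries. Cfl1 had 10 of 21, 4 of 11 and 3 of 3 counts there in confined libraries, against 14 of 28, 38 of 103 and 35 of 77 in unconfined ones. Its confined libraries 1 and 2 had 47.6% and 36.4%. The axis as a whole took 0.0911% ± 0.0079 of the library's counts in confined cells and 0.124% ± 0.00284 in unconfined cells (SD, n = 3 each).

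**Figure D2:**
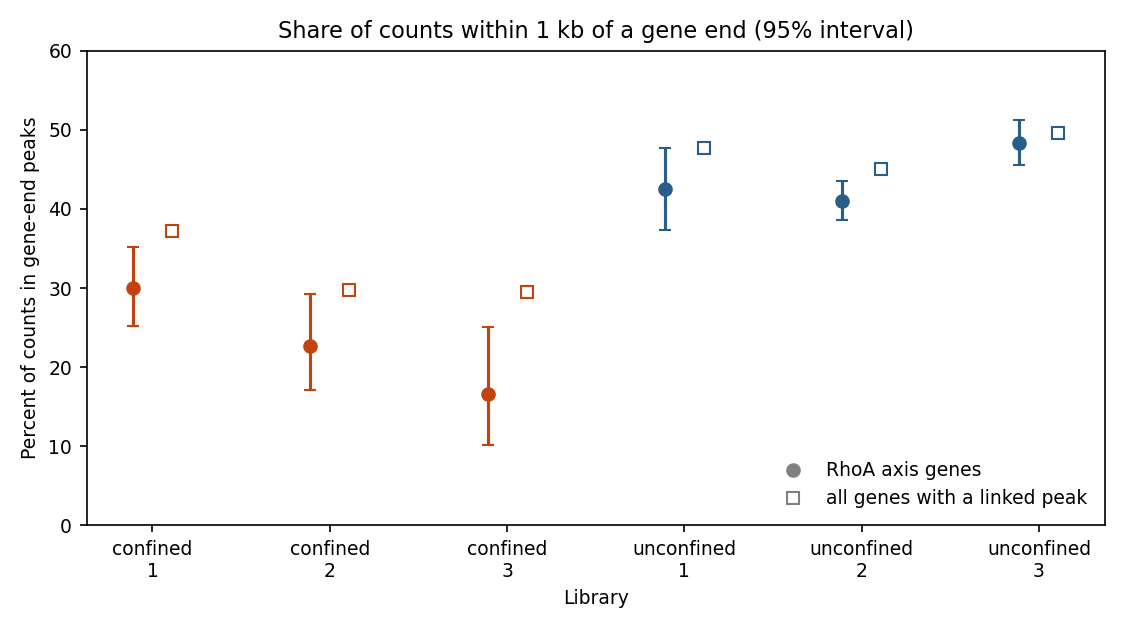
Percent of counts that fall in gene-end peaks, by library, confined left and unconfined right, for the 41 peaks of the axis and for all peaks linked to a gene; bars are 95% Clopper-Pearson intervals, which cover counting error only. The axis lies between 16.7% and 30.0% in confined libraries and between 41.0% and 48.4% in unconfined ones, and the linked peaks of the whole table differ in the same direction.

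A test of each peak against the other peaks of its own gene, chosen after seeing the data, asked whether a site differed from its neighbours. Of the 40 peaks at genes with more than 1 peak, 0 passed in either direction (edgeR, adjusted over 28188 peaks), with 0.639% of all peaks higher and 0.188% lower against their gene. The lowest adjusted p was 0.0867, at the Diaph1 peak 7660 bp inside the gene, with a log2 fold change of 1.58 relative to the other Diaph1 peaks. In simulated counts this test called 2 of 200 peaks changed 4-fold, so it had little reach at this depth.

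Without the filter on low counts, all 41 peaks entered the fit, and 6 were called lower and 0 higher in confined cells, against 4.27% lower and 1.47% higher of all 42632 peaks. The 6 were the gene-end peaks of Rhob (log2 fold change -1.81, edgeR adjusted p = 0.0264), Rock1 (-1.96, 0.0166), Rock2 (-1.75, 0.0328), Diaph1 (-1.77, 0.0254) and Limk1 (-2.01, 0.0209), and the Rock2 peak 28509 bp away (-1.56, 0.0432). The gene-end peaks called were 5 of 11, where 11.7% of all gene-end peaks were called lower and 0.293% higher. Of the 30 others 1 was, where 1.61% were called lower and 1.89% higher. Rhoa missed the threshold (-1.38 with SE 0.51, edgeR adjusted p = 0.0778), and so did Cfl1 (-0.75 with SE 0.46, edgeR adjusted p = 0.328). This fit sits on another scale: the same 9084 peaks that had a median of -0.02 with the filter had -0.90 without it, and the 12 peaks of the axis shifted by -0.97 to -0.84. Scaling by the total counts of all peaks put that median at -0.68 and called 6 of the 12 lower, at the ends of Rhoa, Rhob, Rock1, Diaph1 and Limk1 and at the distal Rock2 site, beside 25.2% of all tested peaks lower and 3.83% higher.

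**Figure D3:**
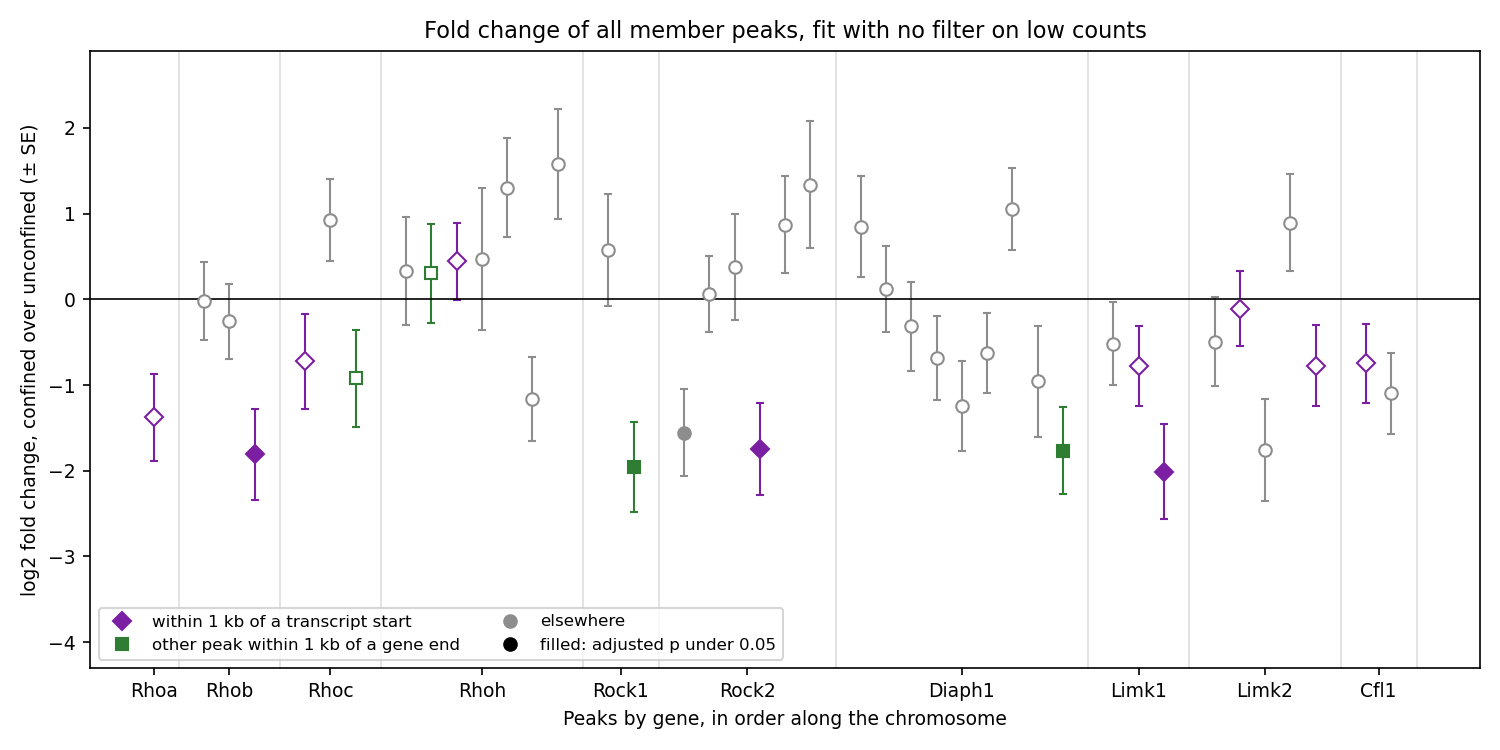
Log2 fold change, confined over unconfined, with SE, of the 41 peaks in the edgeR fit with no filter on low counts, grouped by gene and in order along the chromosome; symbols and colours separate peaks at transcript starts, other gene-end peaks and the rest, and filled symbols have an adjusted p under 0.05. The 6 filled symbols, all below 0, lie at Rhob, Rock1, Rock2, Diaph1 and Limk1; peaks elsewhere at Rock2 and Diaph1 lie on both sides of 0.

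At the tested gene-end peaks the sign held across the settings run while the call did not. These peaks reached the filter in all 3 unconfined libraries and in 0 to 2 confined ones. The fits also reuse the same counts, so the unchanged sign is no separate support. With no filter, 10 of the 11 gene-end peaks of the axis were below 0 and 1 above, at the outer Rhoh end (0.30). Of all 11273 gene-end peaks, 8269 were below 0 in that fit. Over 16 fits each, the log2 fold change ran from -1.38 to -0.20 at Rhoa, -1.81 to -0.62 at Rhob, -1.96 to -0.82 at Rock1 and -1.77 to -0.76 at Diaph1, and over 17 fits from -2.01 to -0.27 at Limk1. They were below 0 in all of these fits and past the threshold in 1, 3, 3, 4 and 6 of them, in that order. Single libraries decided some calls. Without confined library 1, 3 of 16 tested peaks of the axis were lower, at Limk1 (log2 fold change -1.86, edgeR adjusted p = 0.0170), Rhob (-1.52, 0.0356) and Diaph1 (-1.74, 0.0364), and 1 was higher, at the inner Rhoh start (1.62, 0.0498), where 7.42% of all tested peaks were lower and 16.0% higher. Without unconfined library 1, 3 of 24 were lower, at Rock1 (-1.62, 0.0247), Limk1 (-1.81, 0.0261) and Diaph1 (-1.45, 0.0316), beside 4.79% of all tested peaks lower and 3.54% higher. Without confined library 3, Limk1 was lower (-1.20, 0.0288; 4.31% of all tested peaks were) and the Rhoh peak 13140 bp inside the gene was higher (2.19, 0.0379; 6.67% were). Without unconfined library 2, Limk1 alone was lower (-1.30, 0.0475; 2.43% were, and 6.01% were higher). Without confined library 2 or unconfined library 3 none passed, beside 1.84% higher and 0.588% lower of all tested peaks in one fit and 2.56% and 0.708% in the other, and none passed when confined library 1 stood alone for its group.

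**Figure D4:**
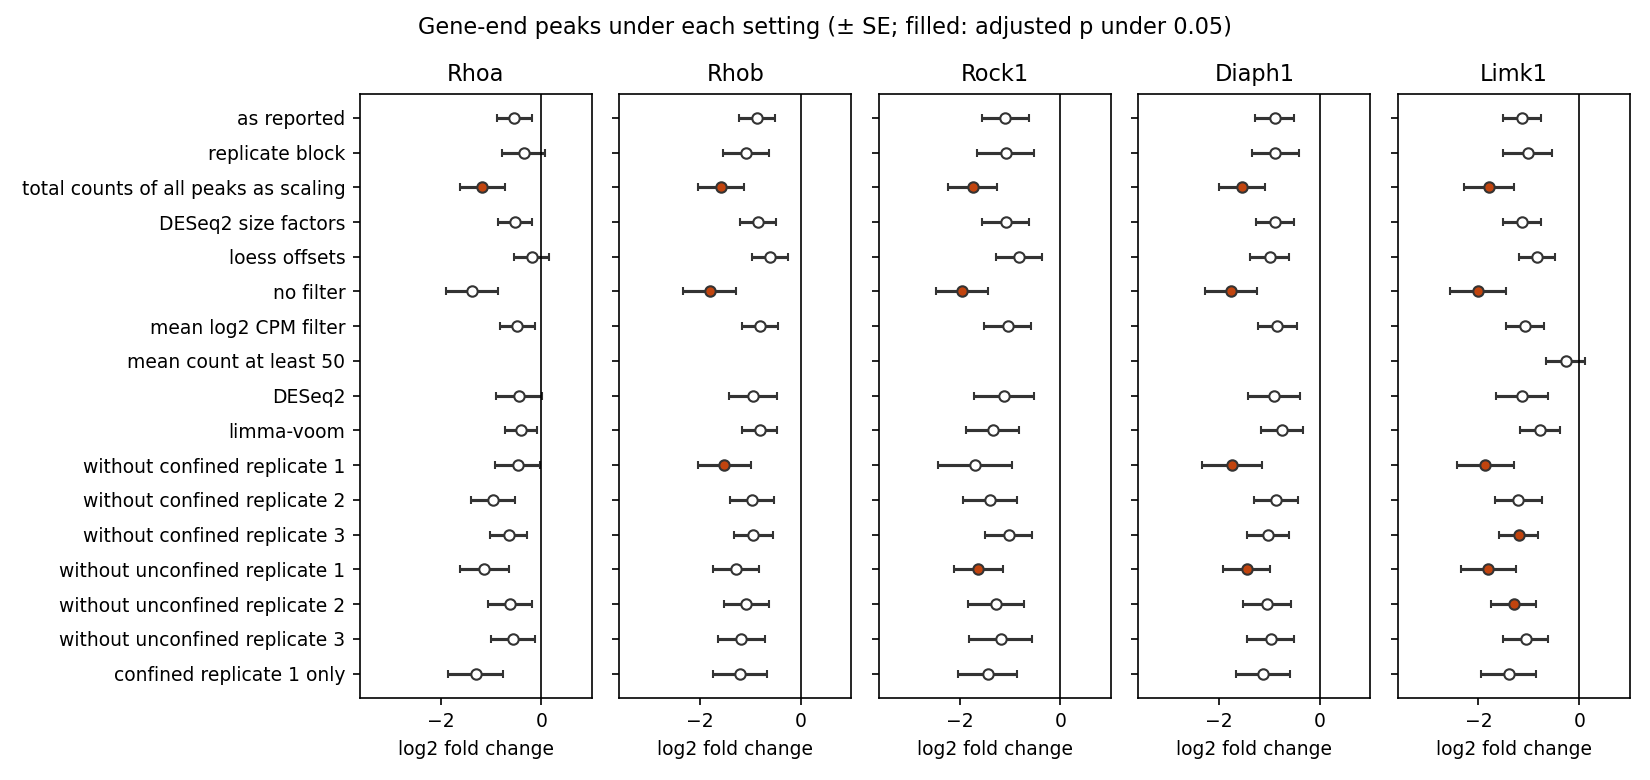
Log2 fold change, confined over unconfined, with SE, of the tested gene-end peaks of Rhoa, Rhob, Rock1, Diaph1 and Limk1 under each processing setting and with each library left out; filled points have an adjusted p under 0.05. Points lie left of 0 in every row, and the rows with no filter and with total counts as the scaling lie farther left than the values as reported.

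The peaks whose pattern over the 6 libraries was most like that of the Rhoa start were looked up among 737 gene-end peaks with at least as many counts. The closest lay at Ddx54, Heatr1, Hspa8, Cand1 and Rasa1, with root mean square differences of 0.165, 0.172, 0.173, 0.187 and 0.210 in mean-centred log2(CPM + 1), against a median of 0.696 over the candidates. Their log2 fold changes were -0.29, -0.64, -0.20, -0.57 and -0.71, and none passed.

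Other genes of the RhoA pathway were taken from a list of 83 genes, of which 74 had a linked peak and 59 of their 255 peaks were tested. In confined cells 11 of the 59 were higher and 2 lower, where 5.79% and 2.42% of all tested peaks were, and the median log2 fold change was 0.18. Of the 11 higher peaks, 9 reached the filter in no unconfined library and entered only through the confined ones, so their count is no measure of the list. Among GTPase-activating proteins, which switch such GTPases off, 6 of 18 were higher and 0 lower, among them 4 at Arap1 (log2 fold changes 2.42, 1.86, 1.82 and 1.31) and 1 at Arhgap21 (2.10). The first Arap1 peak, inside the gene on chr7:101383618-101384317, held 108, 334 and 157 CPM in confined libraries and 40.3, 49.4 and 16.3 CPM in unconfined ones (SE 0.50, edgeR adjusted p = 0.00195). Among RhoA-family effectors and genes of myosin light chain control, 5 of 15 were higher, at Rhpn1 (2.12), Ppp1r12a (2.10), Mylk, the myosin light chain kinase (1.83), Ppp1r12c (1.80) and Rtkn2 (1.18). Ppp1r12a encodes the myosin phosphatase subunit that ROCK phosphorylates, and its higher peak lies 5959 bp inside the gene. The Ppp1r12a start peak had the opposite sign and did not pass (log2 fold change -1.19 with SE 0.45, edgeR adjusted p = 0.0876), but was called lower with no filter (-2.01, 0.0166) and with total-count scaling (-1.81, 0.00848).

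The 2 lower peaks were at gene ends and reached the filter in 0 confined and all 3 unconfined libraries, so they too entered through the group where they were high. Pkn2, which encodes a protein kinase that binds RhoA, held 41.7, 55.7 and 94.3 CPM in confined libraries and 235, 160 and 184 CPM in unconfined ones on chr3:142881856-142882555 (log2 fold change -1.76 with SE 0.42, edgeR adjusted p = 0.00715). Myl12a, a regulatory light chain of myosin, held 41.7, 111 and 62.9 CPM in confined libraries and 182, 171 and 141 CPM in unconfined ones on chr17:71002090-71002789 (log2 fold change -1.33 with SE 0.41, edgeR adjusted p = 0.0347). With the experimental batch as a block, the calls at Myl12a (edgeR adjusted p = 0.0734) and Rtkn2 (0.0689) were lost. None passed in edgeR among 6 tested peaks of exchange factors, which switch the GTPases on, or 2 of dissociation inhibitors. Nor did any among 6 of other GTPases of the family or 12 of other cofilin genes. At an unadjusted p under 0.05 there were 1, 1, 0 and 1, in that order, beside 2278 of all 9084 tested peaks. Without the filter on low counts, 1 of the 255 peaks was higher, at Arap1, and 9 were lower.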

How the data were processed

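The authors deposited 1 table of raw counts per peak for the 6 ATAC-seq libraries, with peak coordinates on mm10. The submitters' processing notes name SAMtools 1.14, featureCounts and R 4.2.0; not given in the sources used here are their roles, the aligner, the peak caller, the libraries peaks were called on, duplicate removal and any read shift. Peaks called mainly on the deeper libraries would miss sites open only in the others. All peaks were 700 bp wide.

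Peaks were linked to genes with RefSeq GRCm38.p6 gene spans, which carry no exon positions. Members and gene lists were chosen with earlier results of these data known. Every peak was put through edgeR 4.0.16 under R 4.3.3 (filterByExpr, TMM, glmQLFit and glmQLFTest, group as sole term), of which 9084 passed the filter, a CPM of about 31.0 over all peaks in 3 libraries. SEs are the log2 fold change over the root of F. The fits were tested on simulated counts, with 3 of 8884 unchanged peaks called. All simulated libraries shared a common mean profile, whereas confined libraries 2 and 3 correlated little with the others. The simulations therefore do not give the error rate or reach of the tests in these data. Alternatives used DESeq2 1.42.0, limma 3.58.1, other scalings and filters, the batch as a block and each library left out. The test against a gene's other peaks was added after seeing the data, with edgeR's diffSpliceDGE. Values are given for each gene-end peak, for each gene's 2 highest peaks by mean CPM, and for others where a statement turns on them, these last chosen after their values were seen; listed pathway peaks are named where they passed, except 1 that is not reported here.

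Batch numbers in the labels pair the libraries, 1 of each group per batch. Deviations from group means correlated at r = -0.00834, 0.0161 and -0.0674 in pairs 1, 2 and 3, and at -0.129 to 0.139 between differently numbered libraries, so the pairing comes from the labels and was not visible in the counts.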

Additional observations from a re-analysis of the deposited data

How the results depend on the processing

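The tested gene-end peaks of Rhoa, Rhob, Rock1, Diaph1 and Limk1 were below 0 in all fits run, which reuse the same counts and so are no separate support. Leaving out 1 library gave 0 to 1 higher and 0 to 3 lower peaks of the axis; both total-count scaling and no filter gave 6 lower. With the batch as a replicate block, 0 peaks of the axis were higher or lower, 476 higher and 74 lower over all peaks, and 1 of the pathway list lower; only the calls at Myl12a and Rtkn2 were lost among peaks named here. Over all peaks, the fit as reported called 526 higher and 220 lower; the counts were 250 to 1696 higher and 76 to 788 lower with 1 library left out, 348 and 2286 with total-count scaling, 247 and 91 with loess offsets, 171 and 71 with the mean log2 CPM filter, 3 and 0 when mean counts under 50 were dropped, 3 and 7 with confined library 1 only, 1821 lower with no filter and 75 lower with DESeq2. For the pathway list they were 1 to 15 higher and 2 to 6 lower with 1 library left out, 14 lower with total-count scaling, 4 and 1 with loess offsets, 2 and 1 with the mean log2 CPM filter, 0 and 0 with confined library 1 only, likewise when such peaks were dropped, 1 and 9 with no filter, and 1 lower with DESeq2. All 4 tested peaks of the axis that were above 0 changed sign under some setting. The Rhob peak 24786 bp away was at -0.26 with no filter and -0.055 with total-count scaling. The Diaph1 peak 9528 bp inside was at -0.63 and -0.40 there, and at -0.64 to 0.27 with 1 library left out, below 0 without confined library 1 and without unconfined library 1 or 3. The inner Limk1 start was at -0.030 with DESeq2, -0.10 with confined library 1 only, -0.47 with limma-voom, -0.78 with no filter, -0.24 with the replicate block, -0.54 with total-count scaling and -0.83 to 0.18 with 1 library left out, above 0 there only without confined library 3. The inner Limk2 start was at -0.036 with confined library 1 only and -0.11 with no filter. Total-count scaling and no filter set another scale, as described; the cause of the other moves was not tested. Depth in confined libraries 2 and 3 limits single peaks, where 3 counts equal 55.7 and 94.3 CPM.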
